A study of Mus musculus with 9 samples.

Results

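The TRAF and TAB mRNAs of CD40 signalling were measured in RNA that co-precipitated with phosphorylated UPF1 (p-UPF1) from activated mouse B cells. The set comprised 10 genes chosen by name, Traf1, Traf2, Traf3, Traf5, Traf6, Tab1, Tab2, Map3k7, Map3k14 and Birc3, which were found in the count table through their NCBI Gene numbers. All 10 were among the 27179 gene numbers of the table, and all 10 passed the filter on low counts, as did 13129 genes in total. Tab1, Traf2 and Map3k14 were the members most enriched with p-UPF1, Traf5 was the one that was not enriched, and the other 6 lay between.

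CD40 is a receptor of the TNF receptor superfamily through which helper T cells drive B cell proliferation, survival and the germinal centre response. It has no enzyme activity of its own and works through TRAF adaptors that gather at its cytoplasmic tail. TRAF6 passes the signal by way of ubiquitin chains to the kinase TAK1 (encoded by Map3k7) and its partners TAB1 and TAB2, which switch on the IKK, JNK and p38 kinases. TRAF2, TRAF3 and the cIAP ubiquitin ligases (one of them encoded by Birc3) hold the kinase NIK (encoded by Map3k14) at a low level until CD40 is engaged, when NIK accumulates and starts the noncanonical NF-kB pathway. UPF1 is the RNA helicase at the centre of nonsense-mediated mRNA decay (NMD), in which an mRNA is degraded after translation ends at a stop codon that is read as premature, and UPF1 is phosphorylated on mRNAs that are committed to that decay.

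The cells were CD43-negative B cells from spleens of wild-type mice. Per the study's methods its mice were adult, age-matched and of both sexes, and any pooling of animals is not given in the sources used here. All cells received the same activation for 72 h, which itself engages CD40, with CD40L (5 ug/mL), anti-IgM antibody (10 ug/mL) and IL-4 (20 ng/mL) per the labels, while the study's methods name an anti-CD40 antibody in place of CD40L. No unstimulated cells were compared. The 3 groups are thus 3 fractions of such lysates, with 3 libraries each: input (lysate RNA), RNA bound to normal rabbit IgG, and RNA bound to an antibody against p-UPF1. The libraries, named A, B and C within a group, are not stated in the labels to come from separate cultures or animals, so that the P values measure the spread between these libraries, which may be technical.

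The total count per library was 19873687 to 24945286 for input, 17372510 to 18550508 for IgG and 23251890 to 24802119 for p-UPF1, and log2 expression correlated between replicates at 0.982 or more. Of the markers of B cells, 6 genes summed to between 2275 and 3183 CPM (read counts scaled to library size) in all 9 libraries. Markers of T cells (5 genes) summed to at most 0.906 CPM and those of NK cells (2 genes) to at most 0.473 CPM. Markers of myeloid cells (7 genes) summed to between 54.4 and 137.5 CPM, highest in input and nearly all from Adgre1 (1251 to 3409 reads per library, with at most 10 reads of any other marker), and those of plasma cells (3 genes) to between 18.0 and 29.9 CPM. The part of these other cells in the results was not tested. Mitochondrially encoded mRNA accounted for 0.0706% to 0.0778% of the reads with p-UPF1, for 2.05% to 2.24% with IgG and for 2.47% to 2.53% of lysate reads. All values are relative to the rest of each library, so a larger share in a precipitate is not an amount of bound RNA, and in bulk cells a change in the number of cells of a type cannot be told apart from a change in RNA per cell.

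The stop codon is where UPF1 is engaged during NMD, and the surroundings of this codon are therefore shown for the 3 members most enriched with p-UPF1 and, for contrast, for the 3 least enriched over IgG, Traf6, Tab2 and Traf5. The sequences are from RefSeq transcripts on GRCm38.p6, written 5′ to 3′ along the mRNA with the stop codon in capitals. They lie at chr15:80160267-80160293 (plus strand) for Tab1, chr2:25519398-25519424 (minus strand) for Traf2, chr11:103221013-103221039 (minus strand) for Map3k14, chr2:101697485-101697511 (plus strand) for Traf6, chr10:7907423-7907449 (minus strand) for Tab2 and chr1:191997418-191997444 (minus strand) for Traf5, each in the last exon with the 3′ UTR behind it.
Tab1: atgacggcacctTAGtctagcctcaga
Traf2: ctaacaggactcTAGccacccctgcta
Map3k14: gagaaccgacccTAGtcctgtcttcca
Traf6: gatgcgggggtgTAGcgtccatgtact
Tab2: cctcggcatttcTGAgccaaaggcccc
Traf5: ttggaggatctgTAGtgttacctgata

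Among all 10 members the stop codon was TAG in 6 (Traf1, Traf2, Traf5, Traf6, Tab1 and Map3k14) and TGA in 4. TAG ended 23.3% and TGA 51.7% of 11905 coding genes tested. TAG ended the 4 members most enriched over IgG as well as Traf6 and Traf5. Over all genes, those that end in TAG had a median log2 fold change over IgG of 0.05 and the others 0.0025.

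Over IgG, the control for RNA that sticks to any antibody, 4 of 10 members (Tab1, Traf2, Map3k14 and Traf1) reached a log2 fold change of at least 1 with an adjusted P under 0.05, against 22.2% of all genes tested. Over input, the control for the abundance of each mRNA, 3 members reached the minimum of 2 that the study set, against 6.31% of all genes. The same 3 members, Tab1, Traf2 and Map3k14, met both criteria and are called p-UPF1-bound here, against 6.25% of all genes. At any fold, 9 members were higher in p-UPF1 than in IgG (40.4% of all genes were higher and 42.2% lower). The same number was higher than in input (40.8% of all genes), with Traf5 as the exception in both comparisons. Relative to IgG the members had a median log2 fold change of 0.97, and relative to input one of 1.07, while all genes had -0.03 in both. For 9 members the lowest p-UPF1 library exceeded the highest IgG library, as it did for 40.6% of all genes.

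Together the 10 mRNAs contributed 0.248% ± 0.00232 of the reads with p-UPF1, 0.103% ± 0.00080 with IgG and 0.0921% ± 0.00121 in the lysate (SD, n = 3 each). The increase was uneven, as the plot of levels by library shows.

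**Figure D1:**
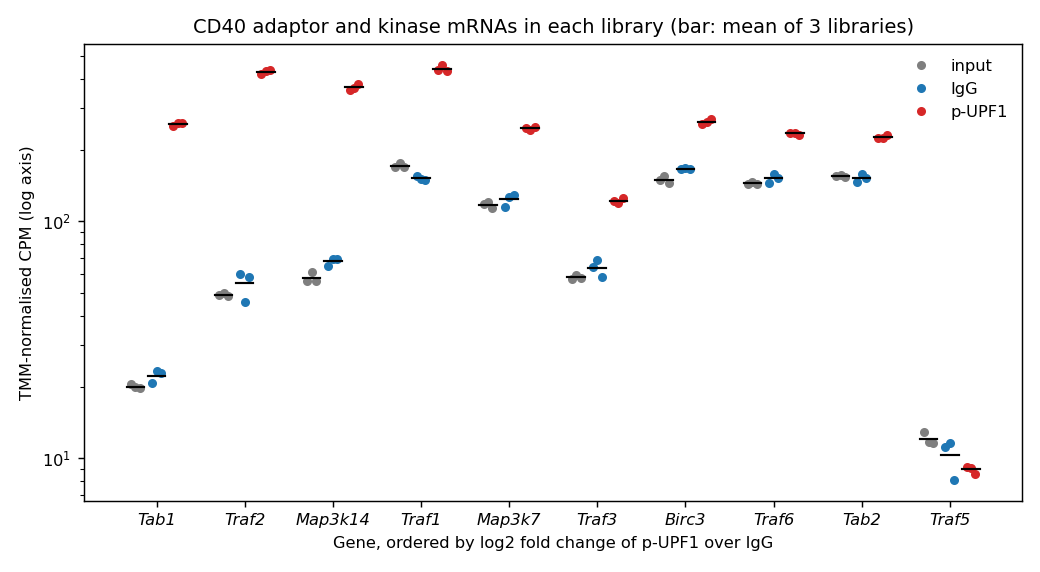
Level of each of the 10 mRNAs in every library, as CPM normalised by TMM on a log axis. Grey points are input, blue IgG and red p-UPF1 libraries, 3 each, and black bars are their means. In all genes except Traf5 the red points lie above all others, and the distance is longest for Tab1.

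Among the adaptors, Traf2 encodes a RING-domain protein that brings cIAP ligases to the receptor (chr2:25517982-25546940). Its level was 48.8, 50.0 and 48.3 CPM in input libraries A, B and C, 60.3, 45.8 and 58.3 CPM with IgG, and 419, 430 and 437 CPM with p-UPF1. The p-UPF1 libraries stood far above both controls, while IgG library B lay below and IgG libraries A and C above all input libraries. The log2 fold change was 2.97 over IgG (SE 0.07, edgeR adjusted P 8.33e-16) and 3.13 over input (SE 0.07, edgeR adjusted P 3.76e-16). These placed Traf2 at percentile 98.8 and 99.5 of all genes tested.

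Traf1, whose product lacks a RING domain and joins TRAF2 at the receptor, is itself a well-known NF-kB target gene (chr2:34941750-34961812). It measured 169.9, 176 and 170.3 CPM in the input libraries, 155, 151 and 149.7 CPM with IgG, and 434, 458 and 431 CPM with p-UPF1. The groups did not overlap, and IgG was the lowest of the 3. With a log2 fold change of 1.54 over IgG (SE 0.04, edgeR adjusted P 1.83e-15) and 1.36 over input (SE 0.04, edgeR adjusted P 6.02e-15), Traf1 passed the criterion for IgG and fell short of the minimum fold over input. An exon of the predicted gene Gm52552 on the opposite strand overlaps Traf1 exons over 90 bases, 1.65% of their length, and strand use in counting is not given in the sources used here.

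Traf3 encodes the adaptor that ties NIK to the ubiquitin ligases and is degraded when CD40 is engaged (chr12:111166321-111267155). It measured 56.9, 59.3 and 57.9 CPM in the input libraries, 64.4, 68.6 and 58.1 CPM with IgG, and 121, 119.8 and 125 CPM with p-UPF1. All p-UPF1 libraries were above both controls, and of the controls only IgG library C lay within the range of the input libraries. The log2 fold change was 0.94 over IgG (SE 0.05, edgeR adjusted P 7.45e-11) and 1.07 over input (SE 0.05, edgeR adjusted P 1.10e-11), just under the minimum over IgG, which it reached at 1.01 without IgG library B.

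Traf6 encodes the adaptor and ubiquitin ligase that acts through TAK1 (chr2:101678420-101701668). Its level was 144, 147 and 144 CPM in input, 145, 158 and 152 CPM with IgG, and 237, 237 and 231 CPM with p-UPF1. The controls overlapped, and p-UPF1 lay above both, with a log2 fold change of 0.63 over IgG (SE 0.04, edgeR adjusted P 2.80e-10) and 0.70 over input (SE 0.04, edgeR adjusted P 6.20e-11).

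Traf5, an adaptor closely related to TRAF3 that also acts downstream of CD40, was the lowest of the members (chr1:191997203-192092599). It measured 13.0, 11.8 and 11.6 CPM in the input libraries, 11.2, 11.6 and 8.11 CPM with IgG, and 9.23, 9.12 and 8.61 CPM with p-UPF1, from 158 to 320 reads per library. The p-UPF1 libraries lay within the range of the IgG libraries and below all input libraries. Over IgG the log2 fold change was -0.20 (SE 0.13, edgeR adjusted P 0.156), and it did not pass. It was -0.35 with an edgeR adjusted P of 0.00528 without IgG library C. Traf5 also passed with library size alone (-0.36), upper-quartile factors (-0.34) and an input library as TMM reference (-0.28), at edgeR adjusted P of 0.017 to 0.049. Over input Traf5 fell by 0.43 on the log2 scale (SE 0.12, edgeR adjusted P 0.00394), and both directions turned when mitochondrially encoded mRNA was set equal across libraries, which moved the median of all genes by over 4 on that scale. This left 4 of the 5 TRAF genes of the set higher with p-UPF1 than with IgG, by log2 fold changes from 0.63 to 2.97, against 40.4% of all genes. The 2 other TRAF genes tested, outside the set, were not higher. Traf4 fell by 0.47 (edgeR adjusted P 4.47e-07) and Traf7 did not pass (-0.02, edgeR adjusted P 0.691).

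In the TAK1 complex, Tab1 and Tab2 differed widely. TAB1 binds the kinase domain of TAK1 and promotes its autophosphorylation, and TAB2 binds ubiquitin chains and so links TAK1 to TRAF6. Tab1 (chr15:80133127-80161707) measured 20.6, 20.0 and 19.8 CPM in the input libraries, 20.8, 23.3 and 22.8 CPM with IgG, and 252, 260.2 and 261 CPM with p-UPF1. The p-UPF1 libraries held more than 10 times the level of any control library. The log2 fold change was 3.53 over IgG (SE 0.05, edgeR adjusted P 3.72e-18) and 3.68 over input (SE 0.05, edgeR adjusted P 1.38e-18), at percentile 99.7 and 99.97 of all genes. Exons of the predicted gene Gm31253 on the opposite strand overlap those of Tab1 over 53 bases, 1.75% of their length.

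Tab2 (chr10:7905648-7956255) measured 155, 157 and 154 CPM in the input libraries, 147, 158 and 152 CPM with IgG, and 225, 225 and 232 CPM with p-UPF1. The controls overlapped and p-UPF1 was above them, by a log2 fold change of 0.58 over IgG (SE 0.04, edgeR adjusted P 7.76e-10) and 0.55 over input (SE 0.04, edgeR adjusted P 1.30e-09). Map3k7, the gene of the kinase TAK1 (chr4:31963492-32023470), measured 119, 120.2 and 114 CPM in the input libraries, 115, 127 and 129.6 CPM with IgG, and 247, 242 and 251 CPM with p-UPF1. This gave a log2 fold change of 0.99 over IgG (SE 0.05, edgeR adjusted P 4.45e-12) and 1.07 over input (SE 0.05, edgeR adjusted P 1.45e-12), again with overlapping controls. Map3k7 thus missed the minimum over IgG by less than its SE. It reached that minimum, at 1.01 to 1.04, with DESeq2 or its size factors, with TMM referred to an IgG library, with no filter or one of 1 CPM in 3 libraries, and at 1.005 to 1.03 without input library B, IgG library B or C, or p-UPF1 library A or B.

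Map3k14 encodes NIK, the kinase that starts noncanonical NF-kB signalling and whose amount is set mainly by degradation of the protein (chr11:103219764-103267401). Its level was 56.0, 61.1 and 55.9 CPM in input, 64.8, 69.6 and 69.6 CPM with IgG, and 358, 367 and 379 CPM with p-UPF1. All 3 groups were separate. The log2 fold change was 2.43 over IgG (SE 0.05, edgeR adjusted P 8.23e-17) and 2.67 over input (SE 0.05, edgeR adjusted P 2.34e-17), at percentile 96.4 and 98.2. Exons of the predicted gene Gm34823 on the opposite strand overlap those of Map3k14 over 127 bases, 3.04% of their length.

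Birc3 encodes cIAP2, a ubiquitin ligase recruited by TRAF2 (chr9:7847468-7873205). It measured 149, 156 and 145 CPM in the input libraries, 166, 169 and 166 CPM with IgG, and 258, 262 and 270.2 CPM with p-UPF1. The groups did not overlap. The log2 fold change was 0.66 over IgG (SE 0.04, edgeR adjusted P 1.35e-10) and 0.82 over input (SE 0.04, edgeR adjusted P 7.11e-12), so that Birc3 and Traf3 lay below the minimum folds and Traf2 above them. Birc2, the gene of the related ligase cIAP1 and no member of the set, is named here after its values were seen. It fell by 0.39 over IgG (edgeR adjusted P 6.21e-07) and by 0.16 over input (edgeR adjusted P 0.00445) on the log2 scale, directions that turned with mitochondrially encoded mRNA set equal.

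Ordered by log2 fold change over IgG, the members ran Tab1, Traf2, Map3k14, Traf1, Map3k7, Traf3, Birc3, Traf6, Tab2 and Traf5. Neighbours differed by more than 2 combined SE except for Map3k7 and Traf3, Birc3 and Traf6, and Traf6 and Tab2. Over input the order was the same but for Traf3 and Map3k7, which exchanged places and were not separated. Both comparisons use the same p-UPF1 libraries. The plot of the 2 comparisons shows Tab1, Traf2 and Map3k14 beyond both minimum folds and Traf1 beyond the one over IgG.

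**Figure D2:**
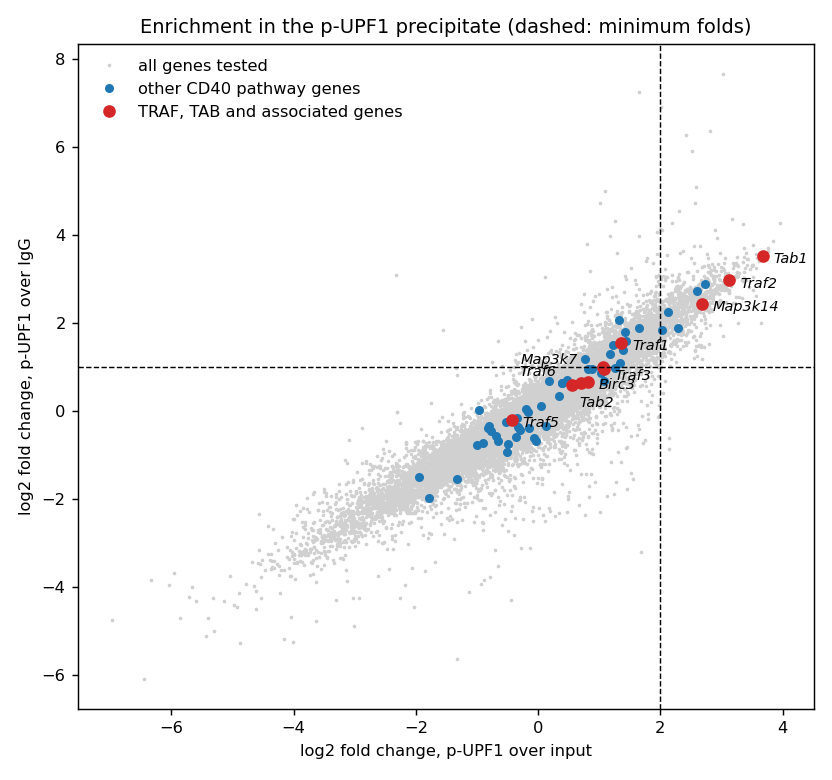
Log2 fold change of p-UPF1 over input (x axis) and over IgG (y axis) for all 13129 genes tested (grey), the 50 other CD40 pathway genes (blue) and the 10 TRAF, TAB and associated genes (red, named). Dashed lines mark the minimum folds of 2 over input and 1 over IgG, and 3 red points lie in the upper right corner.

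IgG over input gives the nonspecific background of each member. Of 10 members, 4 differed at an adjusted P under 0.05, against 52.9% of all genes, and 3 of these (Tab1, Map3k14 and Birc3) were higher in IgG, against 18.2%. Map3k14 was higher by 0.24 (edgeR adjusted P 8.95e-04), Birc3 by 0.16 (edgeR adjusted P 0.00449) and Tab1 by 0.15 (edgeR adjusted P 0.0462) on the log2 scale. Traf1 fell by 0.18 (edgeR adjusted P 0.00135) but lost its call under library size alone, with TMM referred to an input or to an IgG library and with no filter on low counts (-0.09 to -0.06, adjusted P 0.122 to 0.195), and was 0.17 higher with mitochondrially encoded mRNA set equal. The remaining 6 did not pass, with log2 fold changes from -0.24 (Traf5) to 0.16 (Traf2). Without input library C, Tab1 and Birc3 no longer passed and 2 members remained called. Tab1 lost its call in 8 of the 9 fits without 1 library, and also with limma-voom (adjusted P 0.1), with only the groups compared in the fit (adjusted P 0.137) and at an adjusted P under 0.01. Calls were also gained: without IgG library B for Traf2 (0.27, edgeR adjusted P 3.53e-04) and Traf5 (-0.34, adjusted P 0.0391), without IgG library A for Traf5 (-0.31, adjusted P 0.0449) and Map3k7 (0.12, adjusted P 0.0181), and without IgG library C for Traf3 (0.19, adjusted P 0.00670). With library size alone Traf2 (0.28), Traf3 (0.25), Traf6 (0.18) and Map3k7 (0.19) were gained, each at an edgeR adjusted P under 0.01. The same genes passed with upper-quartile factors, with TMM referred to an input or to an IgG library and with no filter on low counts. The median of the members was 0.10 against -0.10 for all genes.

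Ratios of 2 mRNAs within a library do not depend on how libraries are scaled. Between p-UPF1 and IgG, 4 pairs whose products act together were compared by an exact permutation test over libraries. Tab1 stood to Tab2 at 1.13 ± 0.0206 with p-UPF1, 0.147 ± 0.00423 with IgG and 0.130 ± 0.00283 in the lysate (SD, n = 3 each), a 7.73-fold rise over IgG. The 2 TAB mRNAs, of 2945 and 4278 bases, thus had similar counts with p-UPF1 and counts far apart in the lysate. Traf3 to Traf2 was 0.285 ± 0.00565 with p-UPF1, 1.19 ± 0.271 with IgG and 1.18 ± 0.0168 in the lysate. Traf1 to Traf2 was 1.03 ± 0.0399, 2.81 ± 0.426 and 3.51 ± 0.0233 in the same order. Map3k14 to Traf3 was 3.01 ± 0.0575, 1.07 ± 0.109 and 0.993 ± 0.0325. In all 4 the p-UPF1 and IgG libraries did not overlap. How many other gene pairs separate in this way was not determined. Of all single genes, 40.4% were higher and 42.2% lower with p-UPF1 than with IgG. The log2 difference between p-UPF1 and IgG was 2.95 for Tab1 to Tab2, -2.03 for Traf3 to Traf2, -1.44 for Traf1 to Traf2 and 1.49 for Map3k14 to Traf3. Each had an exact two-sided permutation P of 0.1 (0.1 after adjustment over 4 ratios), which is the smallest that 3 against 3 libraries can give.

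Levels between genes can be compared only per length. In CPM per kilobase of RefSeq transcript, Birc3 was the highest member in input (53.2 ± 1.97), followed by Traf1 (45.7 ± 0.880), and Tab1 (6.83 ± 0.139) and Traf5 (5.64 ± 0.349) were the lowest (SD, n = 3 each). In p-UPF1 the order of levels changed, with Traf2 highest at 141 ± 2.97, then Traf1 at 117 ± 3.90, Birc3 at 93.7 ± 2.20, Map3k14 at 88.2 ± 2.57 and Tab1 at 87.5 ± 1.78. Map3k14 and Tab1 did not differ beyond their spread. Traf5 was also the lowest in p-UPF1, at 4.19 ± 0.153. With the length of all annotated exons of a gene in place of 1 transcript, Map3k14, Tab1 and Traf2 led in p-UPF1 at 88.2, 85.0 and 84.2 CPM per kilobase, and in input Traf3 was the lowest at 2.73 and Traf1 (31.5) and Birc3 (31.3) were not separated beyond their spread, so these ranks depend on the isoform assumed.

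Features of the transcripts that were not used to choose the genes were read from RefSeq. An exon junction more than 50 bases behind the stop codon is the classical mark of an NMD target, and upstream reading frames and long 3′ UTRs are other features known to attract UPF1. In none of the 10 members did an exon junction lie in the 3′ UTR, and a junction more than 50 bases behind the stop codon was present in 0.269% of 11905 genes. GENCODE M21 labels 1 of 3 transcripts of Tab1 and 1 of 7 of Birc3 as NMD substrates and none of the other 8 members, against 29% of genes with at least 1 such transcript. Counts per gene do not show which isoform was precipitated.

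**Figure D3:**
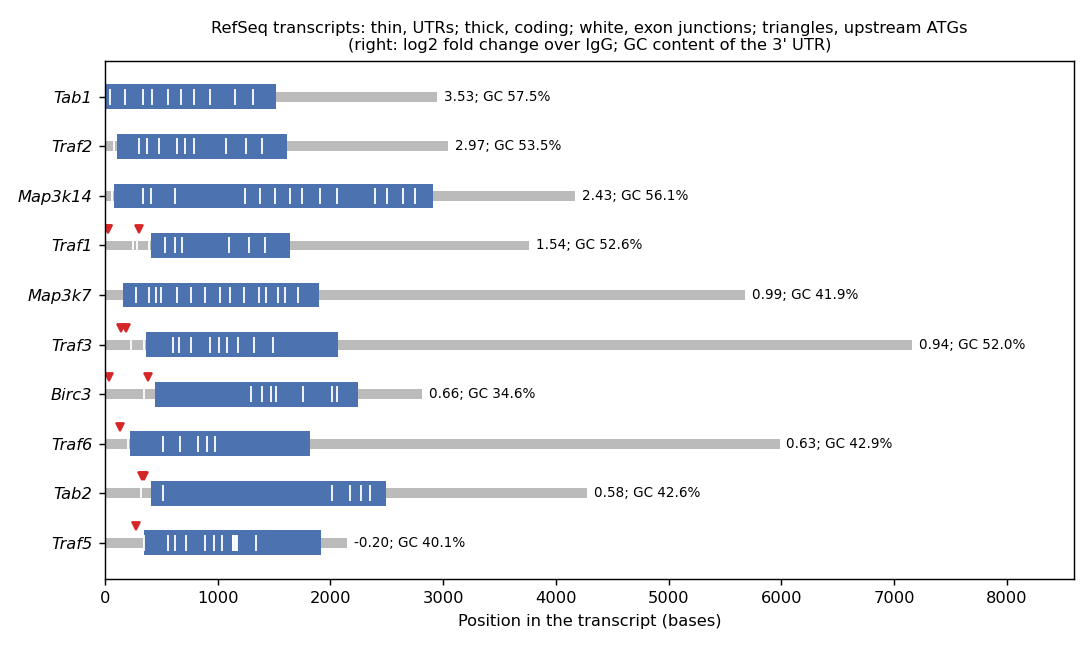
RefSeq transcript of each member to scale, ordered from top to bottom by log2 fold change over IgG, which stands at the right with the GC content of the 3′ UTR. The x axis is the position in bases, thin bars are UTRs, thick bars the coding sequence, white ticks exon junctions as annotated and red triangles upstream ATGs. The annotated junctions of Traf5 from position 1134 to 1171 lie a few bases apart, and whether they are true exon junctions was not tested. The upper 3 transcripts, with annotated 5′ UTRs of 10 to 110 bases, have no upstream ATG, and no transcript has a junction in its 3′ UTR.

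Upstream ATGs were absent from Tab1, Traf2, Map3k14 and Map3k7 and present in the other 6, against 46.6% of all genes. The frame that such an ATG opens ran past the start codon in another frame in Traf5 and Birc3 (14.7% of all genes). Over all genes, those with such an overlapping frame had a median log2 fold change over IgG of 0.29 and the others -0.05. The ATGs of both members are shown as examples of this kind of frame. The upstream ATG is in capitals, at chr1:192092311-192092334 (minus strand) in Traf5 and chr9:7861357-7861380 (minus strand) in Birc3. For comparison, an ATG of Traf1, whose frame ends before the start codon after 3 codons, is shown from chr2:34958579-34958602 (minus strand).
Traf5: agcttaATGccagggtctcgagcc
Birc3: gaagccATGcacaaaactacatcc
Traf1: agccaaATGacagtgtgagaaagt

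The upstream frame of Traf5 holds 96 codons before its stop and that of Birc3 20. Over all genes, those with at least 1 upstream ATG had a median log2 fold change over IgG of 0.17 and those without one -0.16, while the 3 bound members had none. Their annotated 5′ UTRs held 10 bases in Tab1, 83 in Map3k14 and 110 in Traf2, against a median of 157 in 11732 genes. The 10 bases of Tab1 leave little room for an upstream ATG. Of the 5 other pathway genes that met both criteria Tnfaip3 and Nfkbie carried 1 upstream ATG each and 3 carried none. These are annotated frames and their translation was not measured.

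The 3′ UTR was long in most members, at 1428 bases in Traf2, 1426 in Tab1, 1261 in Map3k14, 2123 in Traf1, 5095 in Traf3, 4169 in Traf6, 3786 in Map3k7 and 1787 in Tab2. Only Birc3 (564 bases) and Traf5 (227 bases) had fewer than 1000 bases, and a 3′ UTR of at least 1000 bases was present in 51.3% of 11732 genes. Genes of that kind had a median log2 fold change over IgG of 0.42 and the others -0.38. Among the members with at least 1000 bases, the 3 bound ones had the 3 shortest 3′ UTRs.

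Base composition also followed the order of enrichment, a relation that was noticed after the values were seen. The GC content of the 3′ UTR was 57.5% in Tab1, 56.1% in Map3k14, 53.5% in Traf2, 52.6% in Traf1 and 52.0% in Traf3, and 34.6% to 42.9% in the other 5. A GC content of at least 50% was present in 26.4% of 11732 genes. Across the 10 members, Spearman's rho between 3′ UTR GC content and the log2 fold change was 0.82 over IgG and 0.85 over input. It was 0.50 over IgG and 0.43 over input across the 50 other pathway genes, and 0.31 over IgG and 0.27 over input across 11732 genes. For the length of the 3′ UTR, rho across the 11732 genes was 0.35 over IgG and 0.37 over input. These are descriptions across genes that share libraries, and genes are not independent replicates. The plot of GC content shows the median of all genes rising from -0.73 below 35% GC to 0.48 between 50% and 55% and lying at 0.17 from 60% upwards. Tab1, Traf2 and Map3k14 lie well above the median for their GC content, and of the other members all but Traf5 also lie above it. The part of base composition in library preparation or amplification was not tested.

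**Figure D4:**
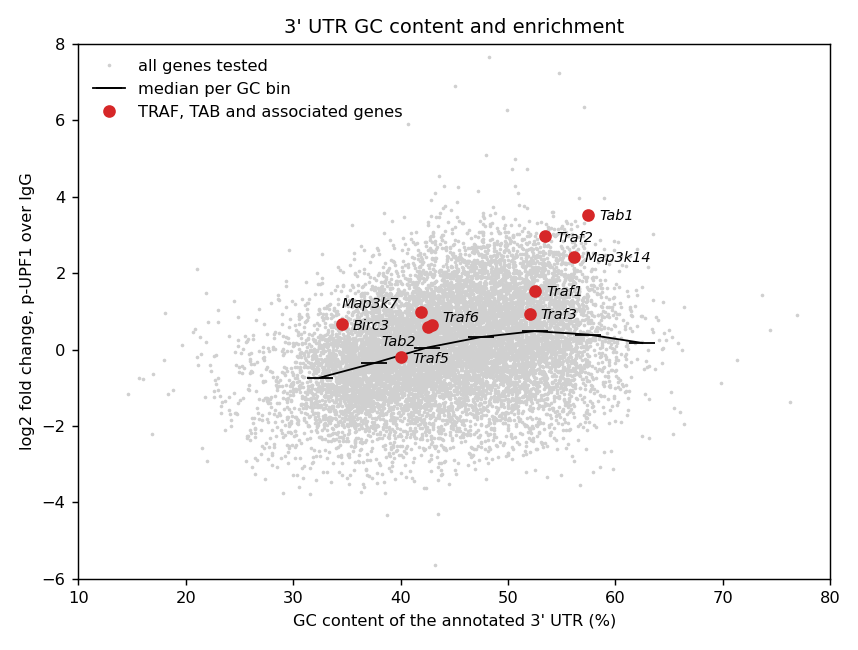
GC content of the annotated 3′ UTR (x axis, percent) and log2 fold change of p-UPF1 over IgG (y axis) for 11732 genes (grey) and the 10 members (red, named). The black line joins the medians of all genes in bins of GC content. All members except Traf5 lie above that line, with Tab1 highest.

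The members were set beside 53 other genes of the CD40 pathway, of which 50 could be tested (Cd40lg, Tnfrsf17 and Tnfrsf1a were too low). Over IgG, 25 were higher, 20 lower and 5 did not pass, and the median was 0.23 on the log2 scale (0.15 over input). Of the 50, 14 passed the criterion over IgG (22.2% of all genes) and 5 passed both criteria (6.25% of all genes). Cd40 itself, singled out here as the receptor after its values were seen, measured 183 ± 3.27 CPM with p-UPF1, 49.6 ± 4.20 with IgG and 58.5 ± 0.0714 in the lysate (SD, n = 3 each). At 1.88 over IgG (SE 0.05, edgeR adjusted P 5.73e-15) and 1.64 over input on the log2 scale, it met the criterion over IgG only.

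The 5 genes that passed both were Nfkbie, Tnfrsf1b, Mapk14, Tnfaip3 and Ikbkg. Nfkbie, which encodes the NF-kB inhibitor IκBε, measured 245, 248 and 240.1 CPM in the input libraries, 217, 222 and 226 CPM with IgG, and 1595, 1650.4 and 1625 CPM with p-UPF1. It was the highest of them, at 2.87 over IgG (SE 0.04, edgeR adjusted P 2.27e-18) and 2.73 over input. Tnfrsf1b, the gene of a TNF receptor that binds TRAF2 directly, followed at 2.74 over IgG and 2.60 over input. The p38 kinase gene Mapk14 stood at 2.26 and 2.12. Tnfaip3, which encodes the ubiquitin-editing inhibitor A20, stood at 1.89 and 2.30. Ikbkg, the gene of the IKK scaffold NEMO, stood at 1.84 and 2.03, close to the minimum over input. It was no longer called without p-UPF1 library B, nor with library size alone, upper-quartile factors or glmTreat. The GC content of the 3′ UTR was 50.2% in Nfkbie and 42.2% to 48.8% in the other 4.

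The lowest of the pathway were Nfkbia, Rel and Nfkbib. Nfkbia, which encodes the inhibitor IκBα, measured 307, 310.3 and 307 CPM in the input libraries, 373, 348 and 338 CPM with IgG, and 96.4, 84.8 and 87.1 CPM with p-UPF1, and fell by 1.98 on the log2 scale over IgG (SE 0.05, edgeR adjusted P 2.10e-15). Rel, the gene of the NF-kB subunit c-Rel, fell by 1.54 (SE 0.09, edgeR adjusted P 4.63e-11), and Nfkbib, the gene of the inhibitor IκBβ, fell by 1.50 (SE 0.06, edgeR adjusted P 1.83e-13). RefSeq exons of Nfkbib overlap an opposite-strand gene over 14.6% of their length. The IκB genes therefore lay at both ends of the pathway, with Nfkbie at the top and Nfkbia and Nfkbib at the bottom.

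By role, 6 of 7 JNK and p38 kinase genes rose over IgG and 1 fell (median log2 fold change 0.96), and all 4 tested genes of other receptors that use TRAFs rose (median 1.58), against 40.4% of all genes higher and 42.2% lower. Among these receptor genes Ltbr, named here for its low counts, had only 5 to 41 reads per library. It stood at 2.06 over IgG (SE 0.35), so the median of 1.58 rests in part on it. Of 9 genes of the IKK and TAK1 complexes, 5 rose and 4 fell (median 0.67). Of 11 TRAF-binding and ubiquitin regulators, 5 rose and 6 fell (median -0.25). Of 8 ubiquitin ligases and conjugating enzymes, 2 rose, 3 fell and 3 did not pass (median -0.07). Of 8 NF-kB subunits and inhibitors, 2 rose, 5 fell and 1 did not pass (median -0.48). Of the 2 other TRAF genes, 1 fell and 1 did not pass. With mitochondrially encoded mRNA set equal across libraries, all 50 genes met both criteria.

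**Figure D5:**
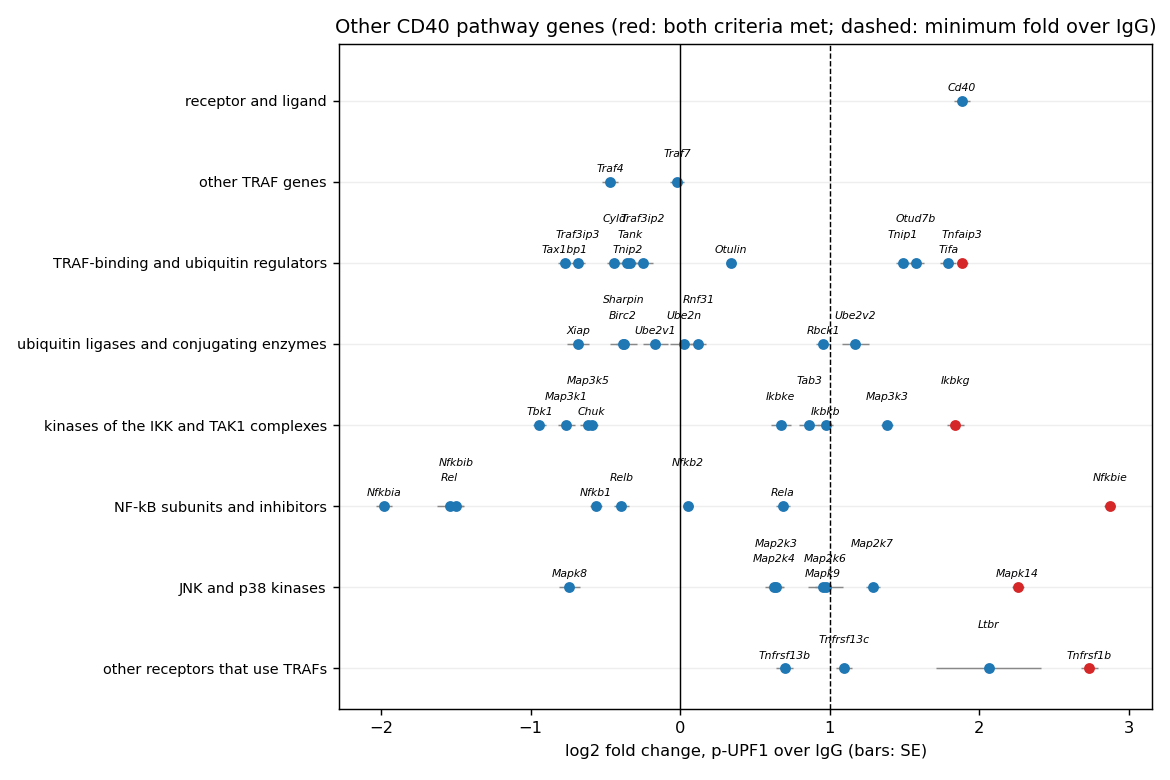
Log2 fold change of p-UPF1 over IgG (x axis) for the 50 other CD40 pathway genes tested, with 1 line per role. Points are fitted values with SE bars, red where both criteria were met, and the dashed line is the minimum fold of 1 over IgG. The NF-kB line spans the widest range, from Nfkbia to Nfkbie.

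As references for the precipitate, Upf1 mRNA stood 2.08 over IgG and 2.04 over input on the log2 scale, and Smg5, a known NMD target that encodes an NMD factor, at 2.62 and 2.63. Tab1 and Traf2 lay above both references in both comparisons, while Map3k14 lay between them over IgG and differed from Smg5 over input by less than its SE.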

How the data were processed

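RNA immunoprecipitation sequencing (RIP-seq) of 9 libraries was analysed. The authors deposited unnormalised read counts for each NCBI Gene number, made from directional libraries. The submitters' processing notes name cutadapt, HISAT2, featureCounts and mm10. Versions and the strand setting for these libraries are not given in the sources used here, and for other libraries of the study the methods state unstranded alignment. If strand was ignored, reads of overlapping genes were shared, and amplified copies were counted as reads. Columns carry letters and the labels numbers, so columns were tied to groups and not to single replicates, and 0 columns stayed unassigned.

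Of 27179 gene numbers, 25275 matched a RefSeq symbol of GRCm38.p6 and 6969 had no count. filterByExpr (minimum count 10, minimum total 15) kept 13129 genes. Counts were TMM-scaled and fitted in 1 model of 3 groups with edgeR 4.0.16 in R 4.3.3 (quasi-likelihood, 6 residual degrees of freedom, prior count 0.125), with Benjamini-Hochberg adjustment across all 13129 genes. SEs were derived from the test statistic. CPM are TMM-normalised. The study's minimum log2 fold changes (1 relative to IgG, 2 relative to input) were applied at an adjusted P under 0.05. Ratios within libraries (counts plus 0.5) were tested by exact two-sided permutation in scipy 1.17.1.

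The 10 members were named in full. Of the other pathway genes, those that met both criteria and the 3 highest and 3 lowest over IgG were named, with Upf1 and Smg5 as references. Members and lists were chosen with earlier results of these data known. Transcripts are RefSeq Select, and 3′ UTR measures cover genes with at least 50 bases of 3′ UTR. Alternatives covered scaling, filters, prior count, DESeq2 1.42.0, limma 3.58.1 (voom), glmTreat, a stricter threshold, the groups fitted and leaving out each library, and, chosen after seeing the data, the column letter as a block.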

Additional observations from a re-analysis of the deposited data

How the results depend on the processing

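Tab1, Traf2 and Map3k14 were the members that met both criteria in every alternative run except scaling to equal mitochondrially encoded mRNA, where all 10 members did, as did all 50 other pathway genes tested. That scaling moved the median log2 fold change of all genes to 4.66 over IgG and 5.00 over input. Under it 10 members passed over IgG and 10 over input, 9 differed between IgG and input, and 5 directions turned: Traf5 to 4.50 over IgG and 4.60 over input, and for IgG over input Traf1 to 0.17, Traf5 to 0.11 and Tab2 to 0.32. The number of members that differed between IgG and input, 4 as reported, was 3 with limma-voom, with only the groups compared and at an adjusted P under 0.01, 4 with a prior count of 2, 5 with DESeq2 size factors and with at least 1 CPM in 3 libraries, 6 with DESeq2, 7 (library size alone, TMM with an input library or with an IgG library as reference, and no filter on low counts) and 8 (upper-quartile factors). Leaving out 1 library gave 2 to 6 such members, 2 without input library C and 6 without IgG library A. It gave 4 to 6 members past the criterion over IgG, 6 without IgG library B, 3 over input, 3 for both criteria and 4 to 5 other pathway genes. Ikbkg was the pathway gene lost, also with library size alone, upper-quartile factors and glmTreat. Map3k7 made the members past the criterion over IgG 5 with DESeq2 or its size factors, an IgG library as TMM reference, no filter on low counts and the filter of 1 CPM in 3 libraries. Without IgG library B, Map3k7 and Traf3 were added. Traf5 fell over IgG at an adjusted P under 0.05, to -0.36 with library size alone, -0.34 with upper-quartile factors and -0.28 with an input library as TMM reference. For IgG over input, Tab2 (-0.03) did not pass and turned to 0.087 with library size alone, 0.041 with upper-quartile factors, 0.0018 with DESeq2 size factors, 0.078 and 0.072 with an input and an IgG library as TMM reference, 0.060 with no filter and 0.0019 in DESeq2. Of 230 values over IgG in 23 alternatives, 225 kept direction and side of the adjusted P threshold, minimum folds aside, as did 229 of 230 over input and 170 of 230 for IgG over input. The cause of these changes was not tested. Without 1 library the log2 difference of the 4 ratios ranged from 2.93 to 2.97 for Tab1 to Tab2, -1.50 to -1.32 for Traf1 to Traf2, -2.15 to -1.85 for Traf3 to Traf2 and 1.45 to 1.57 for Map3k14 to Traf3. The letters of the columns are shared by the groups, but no source ties them to a shared lysate. Deviations from the group means correlated at -0.0051 to 0.0542 (median 0.0325) across genes in the 9 pairs of libraries of different groups with the same letter. In the 18 such pairs with different letters they correlated at -0.056 to 0.0222 (median -0.00956). The pairs of the same letter thus had the higher median, and 0 pairs of either kind were over 0.1. With the letter as a replicate block, chosen after seeing the data, 4 members passed over IgG, 3 over input and 3 both criteria, as did 5 other pathway genes, and 3 differed between IgG and input, where Tab1 lost its call (0.15, edgeR adjusted P 0.0530). Traf5, at 158 to 320 reads per library, had the largest SE of the members.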
